A study of Mus musculus with 6 samples.

Results

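Type I interferon-stimulated genes were examined as a set of 42 genes, listed by symbol, in single cells of the healing rotator cuff enthesis, where tendon inserts into bone. The rule for the set was a list of names and used no threshold on measured values. Of the 42 genes, 40 had a row among the 32285 genes of the matrices, and Mx1 and Mx2 were not analysed here. Single-cell RNA sequencing (scRNA-seq) of 6 libraries had been performed at 7 days post injury (dpi), after the supraspinatus tendon of adult mice had been detached and repaired. The 3 wild-type libraries came from C57BL/6 mice, and the 3 Nlrp3-/- libraries came from mice that lack Nlrp3 in every cell, not in 1 cell type alone. Tissue of several animals was pooled for the libraries, no uninjured tissue was included, and the labels give neither the number nor the age of the animals. The question behind the study's comparison was what loss of the NLRP3 inflammasome, a cytosolic complex that matures IL-1β, changes in the cells of the injured site.

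Type I interferons are secreted when cells sense foreign or misplaced nucleic acid, and they act through the receptor IFNAR on nearly every cell. The kinases JAK1 and TYK2 then act on STAT2, which works with IRF9 at interferon-stimulated response elements in the promoters of antiviral genes. Several of the products, such as IRF7 and the RNA sensors, feed back on the pathway, and some of the genes, among them Cxcl9 and Gbp2, are also induced by interferon gamma.

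The total of unique molecular identifiers (UMIs) ranged from 97042713 to 134901999 per library, and 9345 to 20507 cells per library were kept, with medians of 1816 to 6710 UMIs per cell. Pairs of libraries shared 27 to 92 cell barcodes. Levels are given in CPM, the per-million share of a gene's UMIs among all UMIs of the cells in question. Nlrp3 was measured at 92.8, 162 and 136 CPM in the wild-type libraries and had 0 UMIs in each of the 3 Nlrp3-/- libraries, which bears out their titles, although the genotype field of 2 of them names Nlrp4 or Nlrp5. Xist, an RNA of female cells, was at 783 to 950 CPM in the Nlrp3-/- libraries and at 0.024 to 0.12 in the wild-type libraries, so that genotype and sex cannot be told apart in any comparison below. Nlrp3-/- replicate 1 stood apart from the other libraries, with the most cells and the lowest median depth. Clusters filled mostly by 1 library held 10217 of the 80351 cells and were set aside. Most of these cells came from Nlrp3-/- replicate 1, which lost a large part of its 20507 cells. Of the remaining cells, 69228 fell into 14 types with at least 78 cells in every library. Each type was named by its resemblance to fixed marker genes, so that macrophages below stand for macrophage-like cells. Nlrp3-/- replicate 1 had the lowest median UMIs per cell in every type except monocytes, mature neutrophils and intermediate neutrophils. In neutrophil precursors its median was 1896, against 14681 to 19747.5 in the other libraries. In mature neutrophils it was 1303.5, within the range of 1111 to 1548.5 of the others.

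The promoters of 5 members are shown because they hold the letters of the response element that gives the set its name. Each window runs from 250 bases before to 50 bases after the start of the gene in the direction of transcription (RefSeq, build GRCm38.p6), and the capitals mark the letters GAAA or TTTC of the motif GAAANNGAAA or its reverse complement TTTCNNTTTC. Cxcl10 lies at chr5:92348840-92349139 on the minus strand, Ifit1 at chr19:34640639-34640938 and Ifit3 at chr19:34583279-34583578 on the plus strand, Isg15 at chr4:156200769-156201068 and Rsad2 at chr12:26456403-26456702 on the minus strand.
Cxcl10: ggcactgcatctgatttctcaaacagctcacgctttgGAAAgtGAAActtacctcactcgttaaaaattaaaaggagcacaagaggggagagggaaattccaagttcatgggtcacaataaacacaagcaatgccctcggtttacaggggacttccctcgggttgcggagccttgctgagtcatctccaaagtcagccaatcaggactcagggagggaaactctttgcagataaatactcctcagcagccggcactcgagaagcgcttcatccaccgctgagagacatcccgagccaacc
Ifit1: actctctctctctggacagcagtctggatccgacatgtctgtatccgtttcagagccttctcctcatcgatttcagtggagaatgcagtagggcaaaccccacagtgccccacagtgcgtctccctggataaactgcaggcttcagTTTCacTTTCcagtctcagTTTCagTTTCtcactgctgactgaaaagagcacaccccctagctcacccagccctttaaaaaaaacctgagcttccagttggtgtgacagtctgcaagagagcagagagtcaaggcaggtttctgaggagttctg
Ifit3: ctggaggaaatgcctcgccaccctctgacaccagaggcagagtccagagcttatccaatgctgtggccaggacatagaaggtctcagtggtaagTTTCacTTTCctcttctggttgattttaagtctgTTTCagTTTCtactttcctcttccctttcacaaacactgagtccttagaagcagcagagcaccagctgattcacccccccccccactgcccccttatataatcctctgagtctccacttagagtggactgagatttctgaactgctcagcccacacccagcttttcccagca
Isg15: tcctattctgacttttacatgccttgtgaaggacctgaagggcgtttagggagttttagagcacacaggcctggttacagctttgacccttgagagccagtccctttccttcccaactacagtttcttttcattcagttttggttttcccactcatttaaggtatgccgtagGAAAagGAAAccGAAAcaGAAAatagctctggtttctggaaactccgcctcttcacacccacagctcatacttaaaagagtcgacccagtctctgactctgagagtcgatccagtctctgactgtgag
Rsad2: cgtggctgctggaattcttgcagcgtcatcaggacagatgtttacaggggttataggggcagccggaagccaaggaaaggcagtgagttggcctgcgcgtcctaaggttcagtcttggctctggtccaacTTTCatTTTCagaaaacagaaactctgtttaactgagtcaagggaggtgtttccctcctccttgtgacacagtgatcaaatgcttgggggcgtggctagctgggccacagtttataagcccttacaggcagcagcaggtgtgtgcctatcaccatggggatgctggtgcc
The motif was searched on both strands, and overlapping matches were counted. It occurred 3 times in the Isg15 window, 2 times in those of Ifit1 and Ifit3, and 1 time in those of Cxcl10 and Rsad2. Of the 40 members, 32 had a promoter in the table used here, and 19 of these 32 genes (59.4%) held the motif in at least 1 of their windows, against 1079 of 27025 genes (3.99%). A match describes the letters in the window and does not show that a factor binds there. The members also lie close together in the genome in part: the 5 Ifi200 genes span 465.5 kb of chromosome 1, the 3 IFIT genes 99.32 kb of chromosome 19, Oas1a, Oas2 and Oas3 177.2 kb of chromosome 5, and Rsad2 and Cmpk2 37.09 kb of chromosome 12. Members of these families, and relatives outside the set, resemble each other in sequence, so that reads may have been split or lost between Ifi200 genes, between Ifit3 and Ifit3b or between Oas1a and Oas1g.

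The summed level of the 40 members was highest in monocytes and lowest in immature neutrophils. In monocytes it was 7918, 5371 and 4041 CPM in wild-type replicates 1, 2 and 3 (mean 5776 ± 1970, SD, n = 3). In macrophages it was 5316, 3895 and 2783, and in mature neutrophils 4225, 2848 and 2581. Both of these types thus overlapped each other but lay below the monocytes of the same library in every wild-type replicate. Conventional dendritic cells reached 3743 ± 544 (SD, n = 3) and endothelial cells 2427 ± 471. Mesenchymal cells, the cells that include tenocytes and fibroblasts, had 1358, 1025 and 637 CPM, and immature neutrophils 394 ± 122. Wild-type replicate 1 had the highest value of the 6 libraries in 13 of the 14 types. The UMIs of barcodes without a cell, which are free RNA, held the members at 2593, 1962 and 1273 CPM in the wild-type libraries and at 1488, 986 and 1198 in the Nlrp3-/- libraries. The part of free RNA in the levels of low types was not tested, but immature neutrophils lay below the free RNA of their own library in every case.

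**Figure D1:**
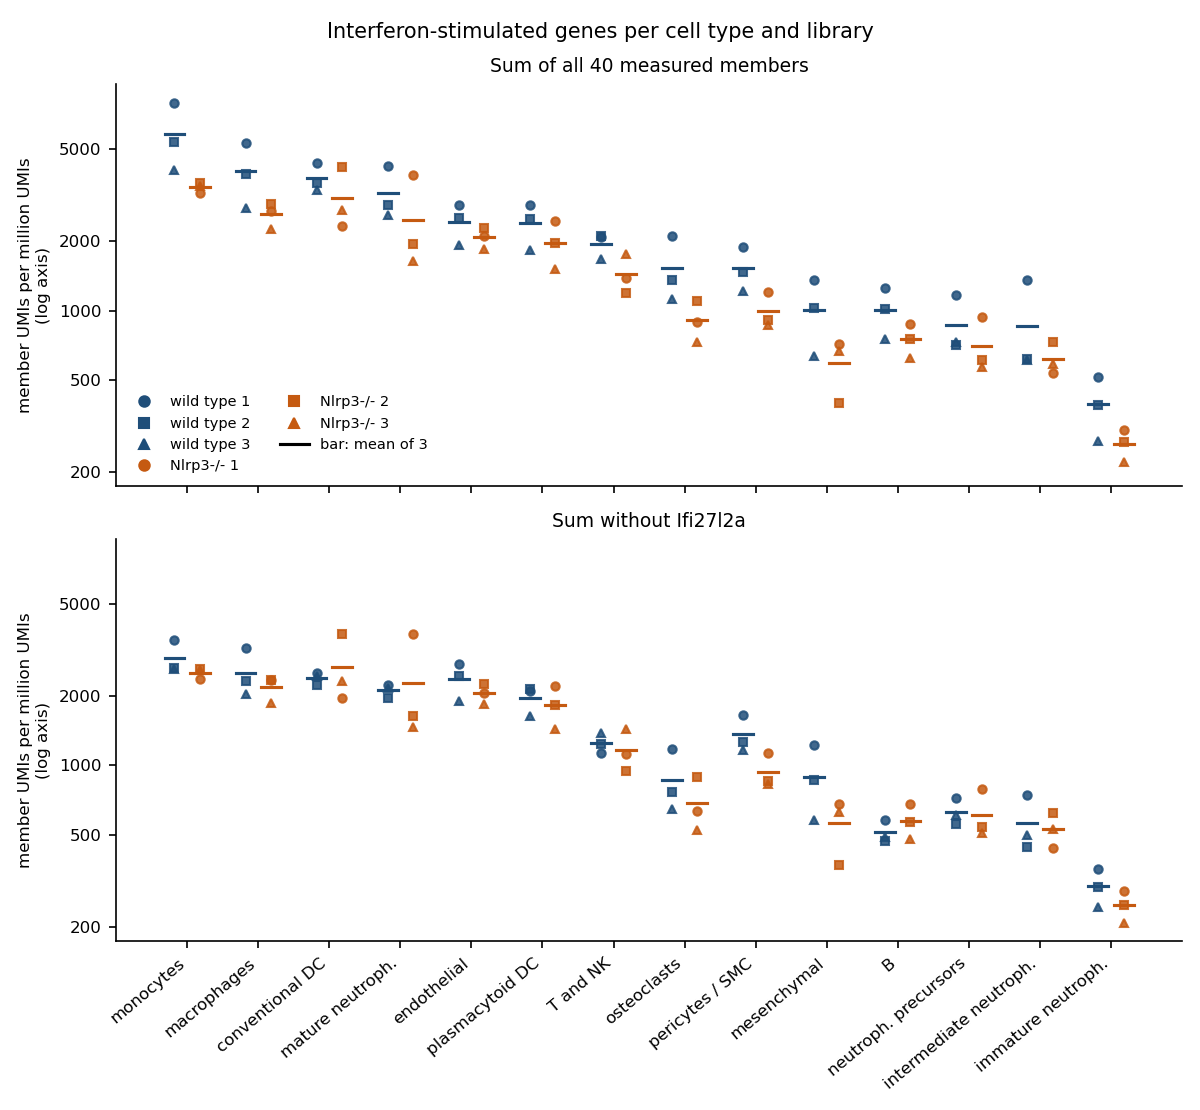
Summed level of the 40 members (upper panel) and of the members without Ifi27l2a (lower panel), in CPM on a log axis, for each of the 14 cell types. Short lines are means of 3 libraries, and circles, squares and triangles are replicates 1, 2 and 3 (blue, wild type; orange, Nlrp3-/-). Monocytes of the wild-type libraries lie between 4041 and 7918, above those of the Nlrp3-/- libraries.

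The members did not share a single cell type of highest level. Among the wild-type libraries 14 of the 40 members were highest in monocytes, 11 in mature neutrophils, 7 in endothelial cells and 3 in conventional dendritic cells. Levels of single members by cell type are means of 3 wild-type libraries in CPM unless replicates are named. Of the signalling members, Isg15, a ubiquitin-like modifier, was highest in mature neutrophils at 368, followed by conventional dendritic cells at 224, and lowest in B cells at 10.6. Irf7, the transcription factor that amplifies interferon production, was highest in macrophages at 136 and in monocytes at 116, whose libraries overlapped. Of the sensors, Zbp1, which binds Z-form nucleic acid, was at 152 in monocytes and 81.3 in macrophages, and Eif2ak2, the RNA-activated kinase PKR, ranged only from 15.1 in T and NK cells to 51.3 in monocytes. These sensors therefore differed in range, with Zbp1 at 5.94 in immature neutrophils.

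The Ifi200 family, whose proteins bind DNA through HIN domains, had 4 of its 5 members highest in monocytes and Ifi205 highest in conventional dendritic cells at 119. Ifi204 was at 222 in monocytes and 159 in macrophages and at 1.41 in B cells. Ifi209 was at 195 in monocytes but at 114 in B cells, its second highest type, and at 0.473 in intermediate neutrophils. Neighbouring genes of 1 family thus parted in B cells. Ifi213, with 2719 UMIs in all cells, had the lowest total of all members, ahead of Oas2 with 2842 and Oasl1 with 3622.

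The remaining groups were highest in several different types. Oasl2 and Oas3, of the oligoadenylate synthetase family of double-stranded RNA sensors, were highest in mature neutrophils at 128 and 94.3, and Oas3 was at 0.609 in endothelial cells. Ifit1, which binds viral RNA, and Ifit3 were also highest in mature neutrophils at 62.6 and 40.5. Bst2, the membrane protein tetherin, was highest in plasmacytoid dendritic cells at 1473, 1508 and 1133 in the wild-type replicates, then in endothelial cells at 873, and reached 14.1 in immature neutrophils. Ifi27l2a, a small interferon-induced protein, was highest in monocytes at 2865. It alone gave 202848 UMIs, 24.6% of all UMIs of the members, so that sums below are also given without it. Gbp2 and Gbp3, GTPases that coat intracellular microbes, were highest in endothelial cells at 51.9 and 34.6. Cxcl10 and Cxcl9, chemokines that attract T cells through CXCR3, differed in their highest type in the wild-type libraries. Cxcl10 was at 231 in monocytes and 200 in macrophages, whereas Cxcl9 was highest in conventional dendritic cells at 11.5, 25.8 and 55.1 in the 3 replicates. In the Nlrp3-/- libraries both were highest on average in conventional dendritic cells, at 352 and 67.8.

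**Figure D2:**
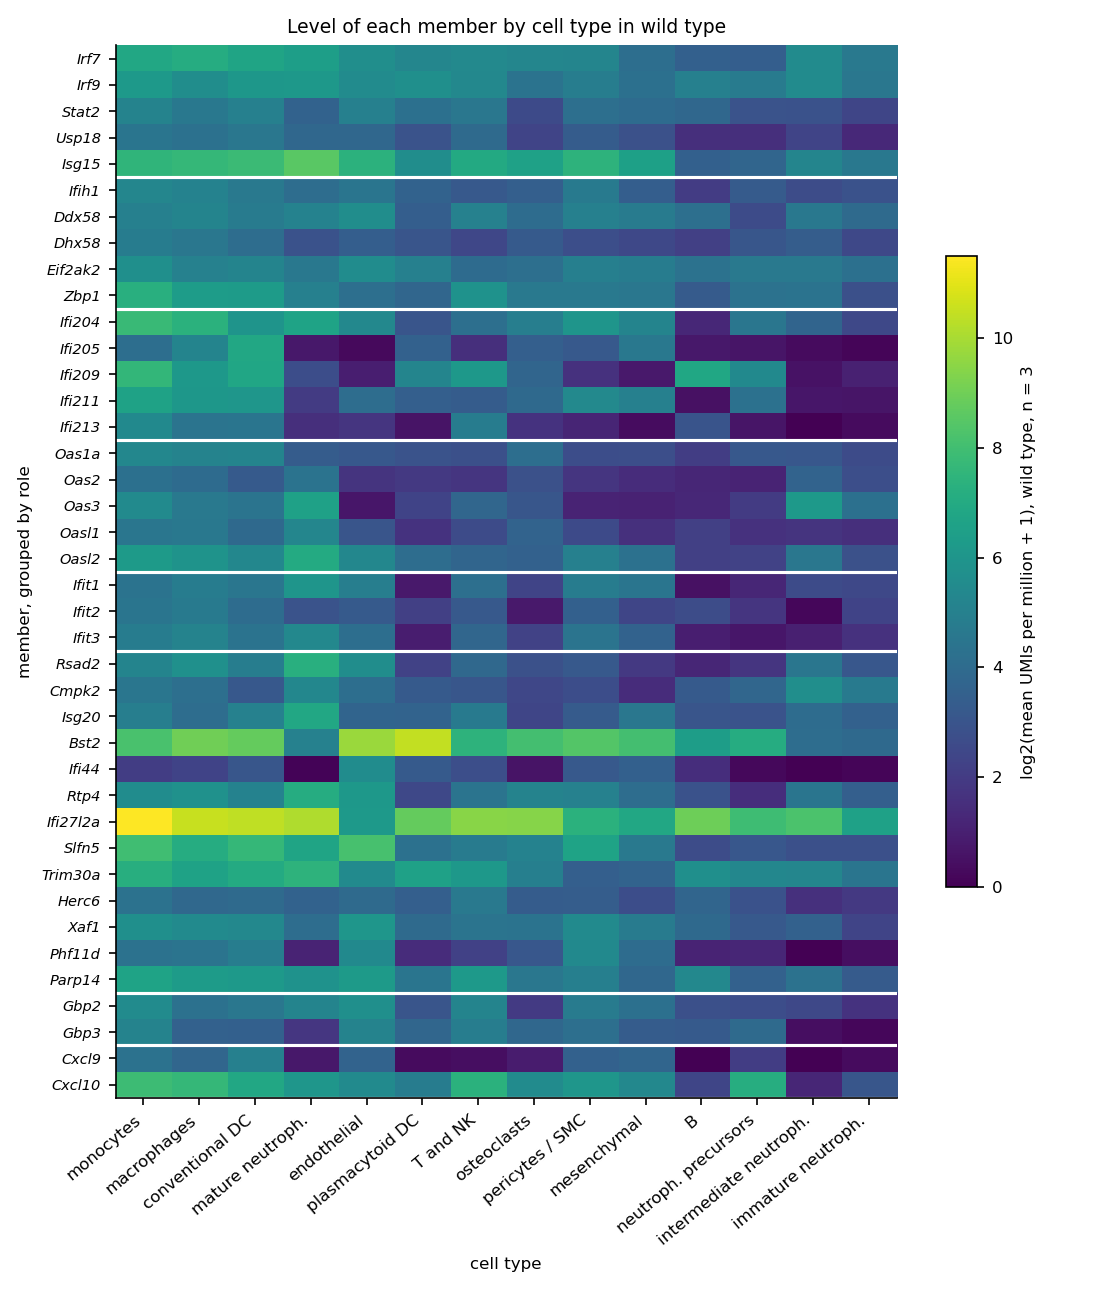
Level of each member in each cell type in wild-type libraries, coloured by the log2 of the mean level in CPM plus 1 (n = 3). Rows are members ordered by role and columns are cell types. Ifi204, Ifi209, Ifi211 and Ifi213 are highest in monocytes and Ifi205 in conventional dendritic cells, 4 of 5 oligoadenylate synthetases are highest in mature neutrophils and Oas1a in monocytes, and Bst2 is highest in plasmacytoid dendritic cells.

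Pairs of cell types were compared within the wild-type libraries with the edgeR quasi-likelihood test, with the library as a block and Benjamini-Hochberg adjustment over all genes tested. The types had been clustered without the members. Because types differ in many genes, each count of members stands beside the share of all genes called in the same direction. In monocytes against macrophages 21 of 40 tested members were higher (background 27.3%) and 4 were lower (background 27.1%), with a median log2 fold change of 0.35 against -0.01 over all genes. Ifi209 was at 252, 154 and 179 CPM in monocytes and at 91.1, 61.9 and 54 in macrophages of the same replicates. Each library showed the difference, which was 1.55 on the log2 scale (SE 0.09, edgeR adjusted p = 1.6e-07). Gbp3 rose by 1.70, Ifi213 by 1.10, Zbp1 by 1.00, Ifi27l2a by 0.98 and Slfn5, of the Schlafen family, by 0.89 on the log2 scale, whereas Bst2, Ifi205, Rsad2 and Ifit1, the last 3 named here after their values were seen, fell by 0.78, 0.98, 0.53 and 0.39. By role, 4 of 5 Ifi200 genes, 3 of 5 RNA sensors and both guanylate-binding proteins were higher, and 0 of 3 IFIT genes. When the members took part in the clustering, a cluster of 3640 cells near both macrophages and conventional dendritic cells was left unnamed. In that fit 15 members were higher and 14 lower, at a median of 0.18, where 3045 and 2990 of 10913 genes were. The cause of that change was not tested.

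In mature neutrophils against macrophages some members were higher and others lower. In that comparison 17 of 40 members were higher (background 33.5%) and 15 lower (background 42.1%), and the members' median log2 fold change was 0.24 against -0.26 over all genes. Isg20, an exonuclease, was at 102, 139 and 115 CPM in mature neutrophils and at 26, 15.3 and 6.89 in macrophages. It was higher by 3.78 on the log2 scale (SE 0.32, edgeR adjusted p = 1.0e-06). Oas3 was higher by 2.77, Rsad2, the antiviral enzyme viperin, by 2.31, Rtp4 by 2.12, Cmpk2, the gene next to Rsad2, by 1.93 and Oasl2 by 1.89. Ifi205 had 8 UMIs in all wild-type mature neutrophils and 1128 in macrophages, and Ifi205, Ifi211, Bst2 and Ifi209 were lower by 4.75, 3.80, 3.21 and 2.85 on the log2 scale. By role, 4 of 5 oligoadenylate synthetases were higher and 1 lower, 2 of 3 IFIT genes higher and 1 lower, 7 of 13 antiviral effectors higher and 4 lower, 2 of 5 signalling genes higher and 0 lower, and 1 of 5 RNA sensors higher and 2 lower. Of the Ifi200 genes 0 of 5 were higher and 4 lower, both chemokines were lower, and 1 guanylate-binding protein was higher and 1 lower. Size factors by the RLE method moved the median of all genes by more than 0.1 in this comparison, to -0.11 with 34 members called, and left the directions of the named members in place. The result depended on the clustering. When the members took part in it, mature neutrophils held 2506 cells instead of 10063. A cluster of 6301 cells nearest to the mature neutrophil markers was left unnamed, as was another of 3640 cells near both macrophages and conventional dendritic cells. In that fit 9 members were higher and 24 lower, where 2795 and 4502 of 10365 genes were. The members' median was -1.09 against -0.59 over all genes. The cause of that change was not tested.

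Mature neutrophils held most members at higher levels than immature neutrophils. In mature against immature neutrophils 30 of 33 tested members were higher (background 33.8%) and 0 were lower (background 33.5%), with a median log2 fold change of 2.41. Rsad2 was at 162, 134 and 158 CPM in mature and at 8.82, 7.06 and 7.19 in immature neutrophils of the wild-type replicates. No value of either type came near the other, and Rsad2 rose by 4.28 on the log2 scale (SE 0.18, edgeR adjusted p = 4.1e-09). Ifi204, Oasl2, Ifit3, Oasl1 and Slfn5 rose by 4.47, 4.36, 4.27, 4.27 and 4.13. Of 33 members tested, 31 had an unadjusted p under 0.05, against 69.9% of all genes. Mature neutrophils were shallower, with medians of 1211, 1111 and 1548.5 UMIs per cell against 6467, 5567.5 and 6723 in immature ones of the wild-type replicates. Free RNA held the members above the level of immature neutrophils, and its part in this difference was not tested.

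Stromal cells held the members at low levels, and vessels more than stroma. In mesenchymal cells against macrophages 1 of 40 members was higher (background 40.4%) and 36 were lower (background 34.6%), at a median log2 fold change of -2.01. Irf7 was at 23.4, 20 and 6.47 CPM in mesenchymal cells against 204, 133 and 72.1 in macrophages (log2 fold change -3.31, SE 0.14, edgeR adjusted p = 2.9e-06). Ifi209 and Ifi213 were lower by 6.76 and 6.25 on the log2 scale and Oas3 and Rsad2 by 4.70 and 4.61. The member that was higher, named here after its values were seen, was Ifi44, by 1.13. In endothelial against mesenchymal cells 26 of 39 members were higher (background 27.7%) and 5 were lower (background 32.8%), at a median of 0.96. Rsad2 was at 54.7, 61.1 and 29.8 CPM in endothelial cells and at 4.86, 1.66 and 1.72 in mesenchymal cells, a log2 fold change of 4.10 (SE 0.30, edgeR adjusted p = 1.4e-05). Slfn5, Parp14 and Ifi44 were higher by 3.37, 2.35 and 2.06. Ifi205 went the other way, at 3 UMIs in all wild-type endothelial cells and at 28.1, 26.3 and 16.3 CPM in mesenchymal cells, lower by 7.04 on the log2 scale. The other 4 that were lower, named after their values were seen, were Ifi211, Isg20, Ifi27l2a and Zbp1, by 1.15, 1.01, 0.91 and 0.60.

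Plasmacytoid dendritic cells, known as a strong source of interferon during viral infection, held fewer transcripts of the members than conventional dendritic cells. Only Bst2 was higher, 1 of 40 (background 25.8%), and 36 were lower (background 26.9%), at a median log2 fold change of -2.12. Bst2 was at 476, 390 and 435 CPM in conventional dendritic cells, below each plasmacytoid value given above, and it rose by 1.34 on the log2 scale (SE 0.10, edgeR adjusted p = 3.6e-07). Isg15 was at 41.7, 74.5 and 27.2 in plasmacytoid and at 233, 242 and 197 in conventional dendritic cells. It was lower by 2.64 on the log2 scale, Slfn5 by 3.82, Ifi205 by 3.69 and Cxcl9, with 2 UMIs in wild-type plasmacytoid dendritic cells, by 6.57.

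**Figure D3:**
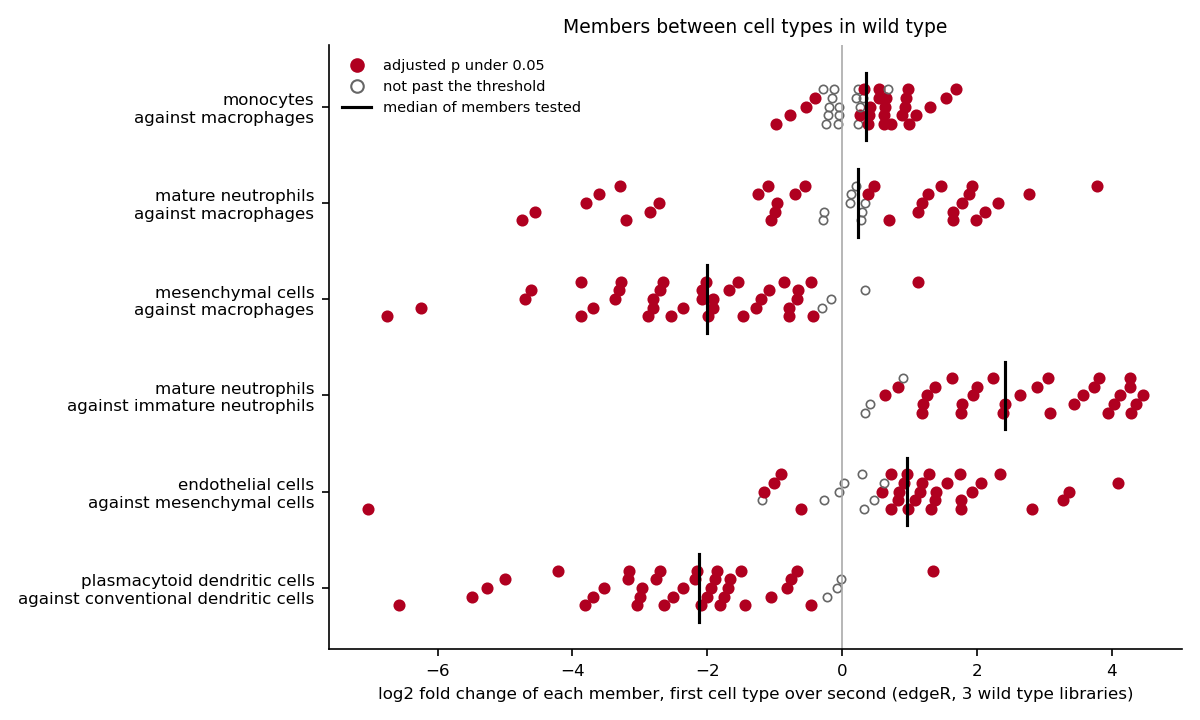
Log2 fold change of each tested member in the 6 comparisons of cell types within the 3 wild-type libraries. Each point is a member, filled points passed the edgeR threshold of 0.05, and vertical lines are medians. All 33 members tested lie above 0 in mature against immature neutrophils, and nearly all lie below 0 in mesenchymal cells against macrophages and in plasmacytoid against conventional dendritic cells.

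Macrophages with a UMI of Rsad2 held more of the other members than macrophages without one. Cells were thinned to 1000 UMIs each so that depth was equal, and shallower cells were left out. In macrophages of the 6 libraries 2.08% to 4.47% of thinned cells had a UMI of Rsad2, and these cells held on average 7.22 to 9.82 other members, against 1.59 to 2.94 in macrophages without it. In immature neutrophils, the type with the lowest summed level, 1.75% of thinned cells of wild-type replicate 1 had a UMI of Rsad2, and these held 2.19 other members against 0.529. Libraries with too few such cells were left out of these averages. The part of free RNA in these shares was not tested. Of the thinned macrophages 11.7% to 28.0% held no member at all. When the members were allowed to take part in the clustering, a cluster of 723 macrophages was led by Ifit2, Ifit3, Cxcl10 and Rsad2 among others. It held 9.30%, 5.43% and 4.59% of macrophages in the wild-type replicates and 5.36%, 9.27% and 4.41% in the Nlrp3-/- replicates. These shares overlapped between the genotypes.

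Between the genotypes the summed level was lower in Nlrp3-/- libraries on average in each of the 14 types, and much of the difference lay in 1 gene. In monocytes the Nlrp3-/- replicates had 3240, 3570 and 3442 CPM (mean 3418 ± 167, SD, n = 3) and did not overlap the wild-type values given above. Macrophages of Nlrp3-/- mice had 2706, 2876 and 2253, which overlapped wild-type replicate 3, and mature neutrophils 3850, 1931 and 1641. In mesenchymal cells the Nlrp3-/- values were 720, 399 and 668, again overlapping wild-type replicate 3. The log2 ratio of Nlrp3-/- to wild-type means ranged from -0.76 to -0.23 over the 14 types, with a median of -0.46. Without Ifi27l2a it ranged from -0.67 to 0.16 with a median of -0.15, and it remained below 0 in 11 types. Wild-type replicate 1 was then the highest of the 6 libraries in 8 types and Nlrp3-/- replicate 1 in 4. The sum without Ifi27l2a was 2912 ± 488 in wild-type and 2507 ± 135 in Nlrp3-/- monocytes (SD, n = 3), still without overlap, and 2113 ± 148 and 2263 ± 1245 in mature neutrophils. Ifi27l2a made up a median of 79.2% of the difference of the means, from 13.96% in endothelial cells to more than the whole difference in B cells, conventional dendritic cells and mature neutrophils. The levels of free RNA given above were also higher in the wild-type libraries on average, and their part in this difference was not tested. No p-value is given for the sum, since its members were chosen as a list.

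Ifi27l2a held the most UMIs of the 40 members. In monocytes it was at 4443, 2724 and 1427 CPM in wild-type and at 888, 973 and 870 in Nlrp3-/- replicates. In macrophages it was at 2112, 1591 and 742 against 369, 534 and 400, and in mature neutrophils at 1990, 900 and 427 against 153, 297 and 183. In each of these 3 types the lowest wild-type library lay above the highest Nlrp3-/- library, and the wild-type libraries spread more widely than the Nlrp3-/- libraries. Its wild-type mean was 2.51 to 5.55 times the Nlrp3-/- mean over the 14 types, the libraries did not overlap in 9 of them, and the unadjusted edgeR p was under 0.05 in all 14. After Benjamini-Hochberg adjustment it was lower in 4 types: in conventional dendritic cells by 1.88 on the log2 scale (SE 0.25, edgeR adjusted p = 0.00147), in osteoclasts by 1.75 (SE 0.25, adjusted p = 0.0192), in monocytes by 1.83 (SE 0.33, adjusted p = 0.0381) and in immature neutrophils by 2.83 (SE 0.53, adjusted p = 0.0449). In macrophages it was fitted at -1.93 (edgeR adjusted p = 0.0862) and in mature neutrophils -2.48 (edgeR adjusted p = 0.228), both past the threshold before but not after adjustment. The call in conventional dendritic cells held without each of the 6 libraries in turn. That in osteoclasts was lost without any of the 3 Nlrp3-/- libraries, and those in monocytes and immature neutrophils were lost without any 1 of the 6 libraries except wild-type replicate 3. The 14 types come from the same 6 libraries and are not independent of each other.

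**Figure D4:**
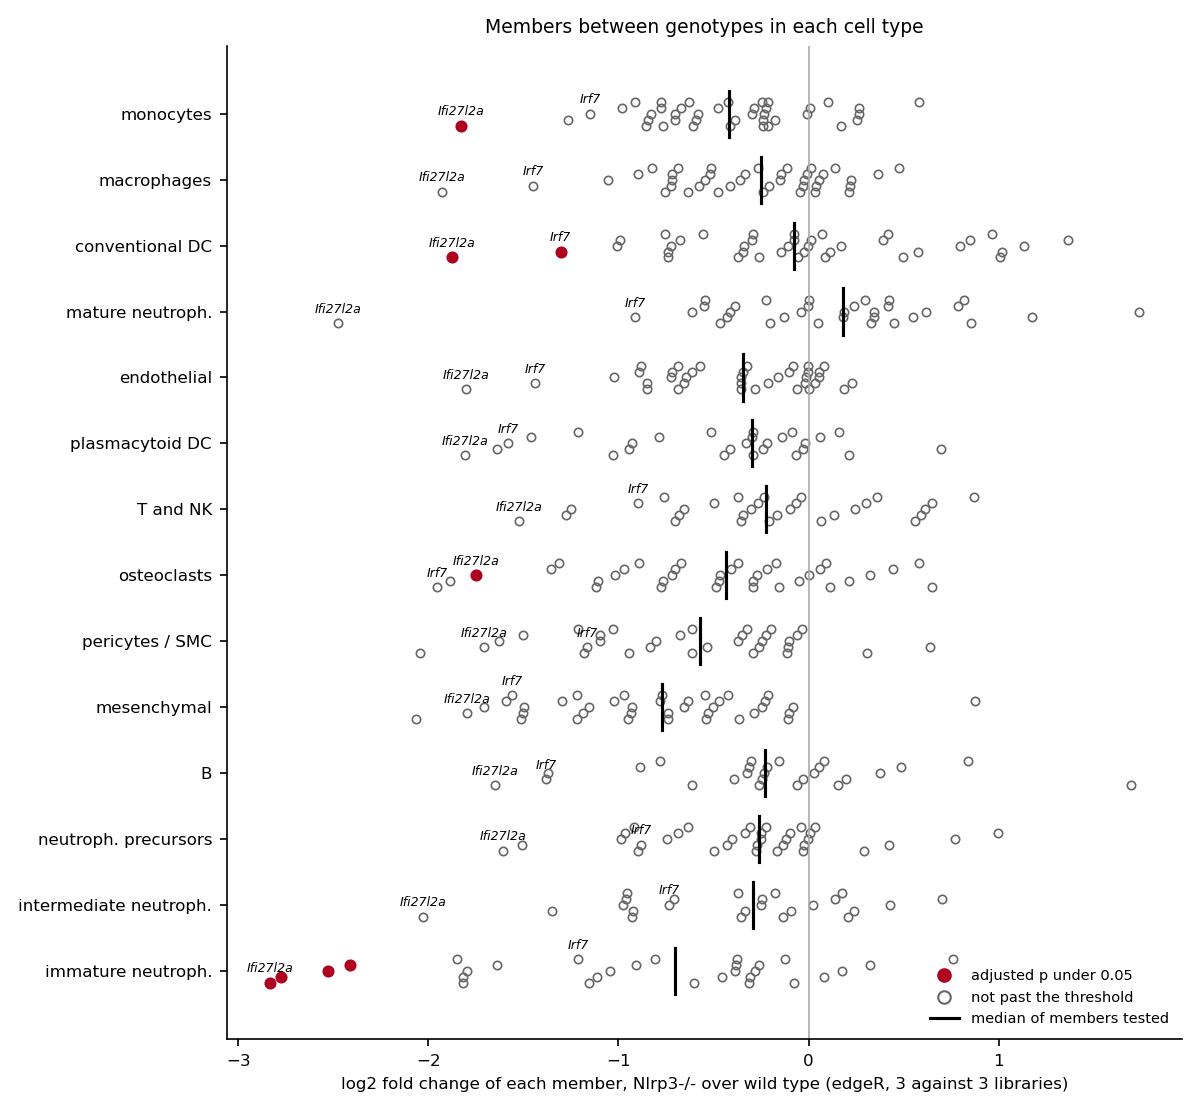
Log2 fold change of the members between Nlrp3-/- and wild-type libraries in each of the 14 cell types. Each point is a member, the filled points passed the edgeR threshold of 0.05, and vertical lines are medians. The members' medians lie below 0 in 13 types and at 0.18 in mature neutrophils.

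Few members passed the test between genotypes. Of 467 pairs of a member and a type tested, 8 were called, each lower in Nlrp3-/- libraries. The 8 calls were of Ifi27l2a, counted in each of 4 types, and of Irf7, Ifit1, Ifit3 and Rtp4. In conventional dendritic cells 2 of 39 tested members were called (background 1.49%), Ifi27l2a and Irf7. Irf7 was at 148, 95.2 and 68.6 CPM in wild-type and at 24.3, 58.7 and 60.2 in Nlrp3-/- replicates, without overlap, and fell by 1.30 on the log2 scale (SE 0.30, edgeR adjusted p = 0.0465). Without Nlrp3-/- replicate 1, and likewise without replicate 3, 1 member was called higher and 1 lower in these cells. In monocytes 1 of 40 was called (background 0.503%) and in osteoclasts 1 of 36 (background 0.353%), Ifi27l2a in both. In immature neutrophils 4 of 30 were called (background 0.622%), Ifi27l2a, Ifit1, Ifit3 and Rtp4. The calls of Irf7, Ifit3 and Rtp4 held only when the library left out was wild-type replicate 3, and that of Ifit1 when it was wild-type replicate 3 or Nlrp3-/- replicate 1. With clusters mostly of 1 library, otherwise left out, kept, immature neutrophils gained a cluster of 450 cells, 355 of them of Nlrp3-/- replicate 1. Its leading genes were mostly immunoglobulin genes such as Ighg2c, Igha and Igkc. In immature neutrophils 0 members were then called, at a members' median of -0.29 instead of -0.70. When the members took part in the clustering, 0 of 28 were called in immature neutrophils. With the replicate block Ifi27l2a alone was called there, DESeq2 did not call Ifit3, and the call of Irf7 was lost when doublets were kept.

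In immature neutrophils the calls of Ifit1 and Ifit3 rested on few molecules, whereas Ifi27l2a had 1562, 493 and 175 UMIs in wild-type and 42, 172 and 90 in Nlrp3-/- replicates. Ifit1 was at 4.31, 4.46 and 5.18 CPM in wild-type and at 2.11, 0.574 and 1.17 in Nlrp3-/- replicates, the latter from 18 UMIs (log2 fold change -2.41, SE 0.43, edgeR adjusted p = 0.0397). Ifit3 was at 2.67, 1.86 and 1.67 against 0.423, 0.459 and 0.437, the latter from 8 UMIs, and fell by 2.53 (SE 0.47, edgeR adjusted p = 0.0431). Rtp4 was at 12.4, 13.6 and 4.51 against 3.38, 1.26 and 1.90 and fell by 2.78 (SE 0.52, edgeR adjusted p = 0.0466). The libraries of these genes did not overlap. A cluster within this type held 119, 253 and 31 cells of the wild-type and 28, 4 and 5 cells of the Nlrp3-/- replicates. Without it, a choice made after its values were seen, Ifit1 was at 1.88, 1.49 and 2.94 against 2.24, 0.460 and 1.17, and Ifit3 at 0.221, 0.743 and 1.38 against 0, 0.460 and 0.438, so that both overlapped. Rtp4 was then at 8.95, 4.95 and 2.07 against 2.68, 1.15 and 1.75, and Ifi27l2a at 122, 47.5 and 24.7 against 16.6, 19.4 and 13.2. Of these 4, Ifi27l2a alone kept its libraries apart.

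In the other 10 types the edgeR test called 0 members after adjustment. In macrophages these were 0 of 40 (background 0.407%), with 11 members and 18.2% of all genes at an unadjusted p under 0.05, and 3 members and 2.97% of all genes called by DESeq2. Mature neutrophils had 0 of 33 (background 0.171%), with 3 members against 7.17% of all genes unadjusted and 1 against 0.47% by DESeq2. Mesenchymal cells had 0 of 39 (background 0.115%), with 15 members against 12.4% of all genes unadjusted and 5 against 1.87% by DESeq2. Endothelial cells had 0 of 37 (background 0.507%), with 13 members against 22.2% of all genes unadjusted and 2 against 3.88% by DESeq2. Mesenchymal cells thus had the largest count at the unadjusted level among these 10 types. B cells had 0 of 26 (background 0.275%), with 3 members against 8.24% of all genes unadjusted and 1 against 0.652% by DESeq2. T and NK cells had 0 of 30 (background 0.454%), with 6 members against 10.9% of all genes unadjusted and 1 against 0.896% by DESeq2. Intermediate neutrophils had 0 of 24 (background 1.22%), with 9 members against 14.1% of all genes unadjusted and 0 against 1.7% by DESeq2. Intermediate neutrophils thus had 0 members called by either test. Neutrophil precursors had 0 of 34 (background 0.456%), with 3 members against 18.9% of all genes unadjusted and 1 against 3.95% by DESeq2, both below the share of all genes. Pericytes and smooth muscle cells had 0 of 32 (background 0.153%), with 13 members against 13.4% of all genes unadjusted and 2 against 1.14% by DESeq2. Plasmacytoid dendritic cells had 0 of 27 (background 0.292%), with 9 members against 11.3% of all genes unadjusted and 0 against 1.02% by DESeq2.

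In 13 of the 14 types most fitted values of the members lay below 0, mature neutrophils being the exception. In mesenchymal cells 38 of 39 members were fitted below 0, at a median of -0.77 on the log2 scale against 0.04 over all genes, in pericytes and smooth muscle cells 30 of 32 at -0.57, in monocytes 33 of 40 at -0.42 and in macrophages 29 of 40 at -0.25. Without wild-type replicate 1 the medians of the 4 types named were nearer 0: macrophages then had 22 of 40 below 0 at -0.06, mesenchymal cells 30 at -0.44, pericytes and smooth muscle cells 28 at -0.40 and monocytes 31 at -0.30. Mature neutrophils had 14 of 33 below 0 at a median of 0.18 with all libraries, and 12 of 32 at 0.24 without that library. The median turned above 0 in B cells without wild-type replicate 1, with 11 of 24 below 0 at 0.05, and in conventional dendritic cells without Nlrp3-/- replicate 1, with 18 of 39 at 0.06.

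A fixed set of 8 members was followed in 3 types whatever the result, and none of the 8 passed the threshold there. In macrophages Irf7 was at 204, 133 and 72.1 CPM in wild-type and at 49, 54.7 and 62.4 in Nlrp3-/- replicates, with no overlap (log2 fold change -1.45, SE 0.34, edgeR adjusted p = 0.146). Isg15 was at 290, 209 and 101 against 208, 113 and 80.3, and Cxcl10 at 253, 199 and 147 against 185, 192 and 99.8, both with overlap. Ifit1 was at 33.5, 24 and 23.7 against 41.9, 35.8 and 20.8, and Rsad2 at 66.4, 41 and 52.3 against 114, 50.7 and 37.3. The 8 members did not share a direction. The log2 fold changes were -0.72 for Isg15, -0.47 for Cxcl10, 0.14 for Ifit1, 0.22 for Rsad2, -0.02 for Ifit3, -0.82 for Oasl1 and -0.76 for Zbp1, with edgeR adjusted p between 0.248 and 0.981.

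In mesenchymal cells all 8 were fitted below 0. Zbp1 was at 33.4, 23.9 and 11 CPM in wild-type and at 9.23, 5.07 and 10.8 in Nlrp3-/- replicates (log2 fold change -1.52, SE 0.44, edgeR adjusted p = 0.354). Irf7 was at 23.4, 20 and 6.47 against 7.02, 3.56 and 7.20 (log2 fold change -1.56, SE 0.49, edgeR adjusted p = 0.369), and Cxcl10 at 58.8, 49.8 and 10.5 against 24.1, 7.71 and 7.20 (log2 fold change -1.71, SE 0.71, edgeR adjusted p = 0.401). In each of these genes wild-type replicate 3 lay near the Nlrp3-/- libraries and replicates 1 and 2 above them. Ifit1, Isg15, Ifit3, Rsad2 and Oasl1 were fitted at -1.22, -1.16, -0.93, -0.54 and -0.47. With cells pooled over libraries, 1 cluster of this type held 59.5% of the wild-type cells and 29.15% of the Nlrp3-/- cells. Another held 54.3% of the Nlrp3-/- cells and 29.5% of the wild-type cells. Shares by library are not given here, so the pooled shares do not show that the makeup differed between the genotypes library by library. The part of the makeup in the values was not tested.

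In mature neutrophils Nlrp3-/- replicate 1 set the direction. Isg15 was at 323, 392 and 390 CPM in wild-type and at 661, 226 and 173 in Nlrp3-/- replicates. Rsad2 was at 162, 134 and 158 against 502, 96.8 and 76.3, Cxcl10 at 32.2, 52.6 and 106 against 491, 56.4 and 51.6, and Ifit1 at 60.9, 58.5 and 68.5 against 173, 66.2 and 28.1. Replicate 1 was the highest of the 6 libraries in each of these genes, and for Isg15 and Rsad2 the other Nlrp3-/- replicates were the lowest. The fitted log2 fold changes were 1.74 for Cxcl10, 0.62 for Rsad2, 0.55 for Ifit1, 0.19 for Ifit3, 0.05 for Zbp1, -0.04 for Isg15, -0.55 for Oasl1 and -0.91 for Irf7, with edgeR adjusted p of 0.638 to 0.994. Irf7, at 121, 75.1 and 57.7 against 54.8, 35.5 and 47.1, was the gene of these 8 without overlap, and it was not called (edgeR adjusted p = 0.638). No share of all genes without overlap is given beside it. Without Nlrp3-/- replicate 1 the members' median in this type went from 0.18 to -0.66.

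With cells pooled over libraries, the cluster of this type with the most wild-type cells held 53.0% of them and 33.6% of the Nlrp3-/- cells. The cluster with the most Nlrp3-/- cells held 38.7% of them and 37.1% of the wild-type cells. By library the first held 1288 of 2880, 2409 of 3385 and 400 of 1470 wild-type cells. It held 398 of 1162, 121 of 519 and 264 of 647 Nlrp3-/- cells, and these shares overlapped between the genotypes. The remaining cluster, led by Ccl3, Il1a, Cd274, Csf3, Il1rn and Ccl4 held 623 of 1162 cells of Nlrp3-/- replicate 1 and 543 of 1470 cells of wild-type replicate 3, but 9, 215, 9 and 13 cells in wild-type replicates 1 and 2 and Nlrp3-/- replicates 2 and 3. In Nlrp3-/- replicate 1 the members were at 4890 CPM in that cluster and at 2620 in the other mature neutrophils, and in wild-type replicate 3 they were at 2786 and 2468. In wild-type replicate 2 they were lower inside the cluster, at 2143 against 2891, and likewise in the 9 cells of wild-type replicate 1, at 1858 against 4232. In the 9 and 13 cells of Nlrp3-/- replicates 2 and 3 they were higher inside, at 17097 against 1747 and 7740 against 1537. In Nlrp3-/- replicate 1 the 5% of thinned cells with the most member UMIs held 56.7% of them, against 26.0% to 38.0% in the other libraries. Without that cluster, again a choice made after the values were seen, the summed level of replicate 1 was 2620 instead of 3850, Cxcl10 was at 92.4, Rsad2 at 230 and Isg15 at 497. Replicate 1 was then still the highest of the 6 libraries for Rsad2, Cxcl10 and Isg15.

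**Figure D5:**
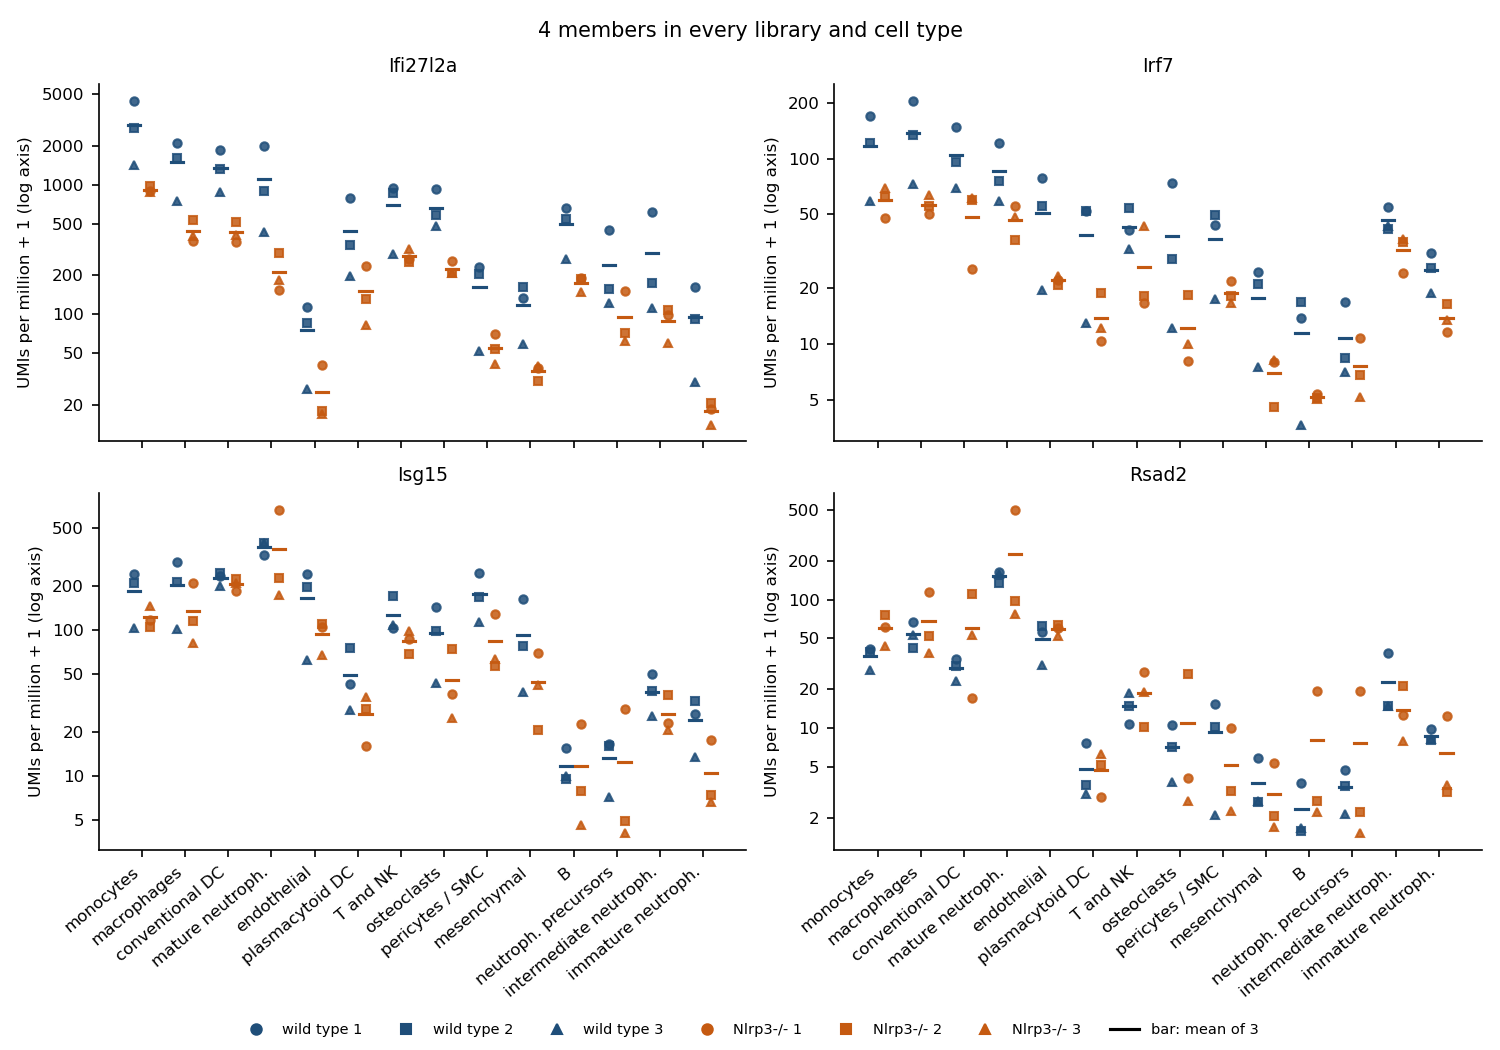
Levels of Ifi27l2a, Irf7, Isg15 and Rsad2 in CPM plus 1 on a log axis, by cell type and library. Short lines are means of 3 libraries, and circles, squares and triangles are replicates 1, 2 and 3 (blue, wild type; orange, Nlrp3-/-). Ifi27l2a and Irf7 lie mostly lower in Nlrp3-/- libraries, whereas Isg15 and Rsad2 of Nlrp3-/- replicate 1 are the highest of the 6 libraries in mature neutrophils.

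Across all types the members differed in how regularly they were fitted lower. Of 467 pairs of a member and a type, 355 (76.0%) had a log2 fold change below 0, with 33 of the 40 members negative at their median over types and 7 positive. There were 12 members below 0 in every type tested: Ifi27l2a, Irf7, Xaf1, Oasl2, Oas3, Rtp4, Ifi205, Isg15, Ifi211, Ifi213, Ifi204 and Ifi44. Some of them, among them Ifi205, Ifi213 and Ifi44, were tested in only part of the 14 types. Ifi44 was fitted at -0.0012 in endothelial cells, -0.031 in macrophages and -0.059 in pericytes and smooth muscle cells. In monocytes and mesenchymal cells it was at -0.78, and in plasmacytoid dendritic cells at -0.93. Irf7 had a median of -1.26 and a range of -1.95 in osteoclasts to -0.74 in intermediate neutrophils. Xaf1, a partner of the apoptosis inhibitor XIAP, had a median of -0.94 and Oasl2 of -0.84, with no call in any type. By contrast 6 members, Slfn5, Stat2, Ifit1, Ifit2, Cxcl9 and Rsad2, were above 0 in most types, and Rsad2 had a median of 0.23. The IFIT genes had medians of 0.08 to 0.18, and 4 of 5 Ifi200 genes were below 0 in every type tested. These counts describe the fits and carry no test, since the types share libraries. No share of all genes below 0 is given beside them.

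The share of cells with several members was also taken. With all cells at 1000 UMIs, 67.0%, 48.1% and 48.8% of monocytes held at least 3 members in wild-type replicates and 36.6%, 34.8% and 34.2% in Nlrp3-/- replicates. In macrophages the shares were 48.5%, 36.9% and 31.7% against 22.3%, 29.0% and 23.0%, and in mature neutrophils 34.8%, 22.7% and 23.2% against 20.2%, 17.3% and 13.6%. The libraries did not overlap in these 3 types or in 4 others. Without Ifi27l2a, an alternative chosen after the data were seen, they did not overlap in 2 types, monocytes and immature neutrophils. The shares were then 47.8%, 30.3% and 34.6% against 24.2%, 25.2% and 24.8% in monocytes, 36.5%, 24.9% and 22.8% against 18.5%, 23.2% and 17.8% in macrophages and 23.3%, 17.8% and 20.3% against 19.3%, 14.4% and 12.4% in mature neutrophils. Macrophages and mature neutrophils thus overlapped between the genotypes once Ifi27l2a was left out. The part of free RNA, higher in the wild-type libraries on average, was not tested. The thinned cells numbered 1357 to 2033 per wild-type and 450 to 885 per Nlrp3-/- library in mature neutrophils, 797 to 1222 and 462 to 793 in monocytes and 1097 to 2940 and 1074 to 2592 in macrophages. In immature neutrophils, the type with the lowest level, the shares were 4.01%, 2.74% and 2.07% against 1.15%, 0.778% and 0.422%. Without thinning the shares were 95.3%, 88.2% and 92.2% against 83.0%, 86.2% and 85.1% in monocytes, and 45.7%, 28.0% and 32.9% against 25.7%, 26.8% and 20.1% in mature neutrophils. In macrophages they were 87.3%, 81.2% and 87.5% against 61.1%, 87.0% and 83.6%, which overlapped.

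Whether the genotype effect differed between mature neutrophils and macrophages was tested as an interaction in edgeR. It called 0 of 40 members (background 0.0258%), with 2 at an unadjusted p under 0.05, so that no difference was shown. Wild-type replicate 3, the lowest of its group in most sums, bore on the number of calls. Without it 18 of 40 members were called in monocytes (background 12.3%), 13 of 38 in endothelial cells (background 23.4%), 11 of 40 in macrophages (background 18.7%), 11 of 32 in immature neutrophils (background 6.81%) and 10 of 37 in osteoclasts (background 16.4%), all of them lower in Nlrp3-/- libraries. The share of all genes called rose as well, and the members' share lay above it in each of these 5 types, which were those with the most calls. Neutrophil precursors went the other way, with 2 of 36 members called against 13.4% of all genes, and mature neutrophils had 0 of 32 against 0.105%. The labels do not set this library apart from the other wild-type libraries.

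The interferon genes themselves were hardly seen. Of 20 genes of type I and III interferons listed, 11 had no UMI in the 14 types, and the other 9 had 112 UMIs in all among the UMIs of all genes there. Ifnz had 47 of them, Ifnab 36 and Ifnb1 12, of which 7 were in neutrophil precursors. Counts this low allow no comparison between types or genotypes.

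Other genes of the pathway were counted in 4 further lists in the same fits. Between genotypes 2 calls were made in all: Irf8, a transcription factor of myeloid and lymphoid cells, fell by 1.36 in T and NK cells (SE 0.26, edgeR adjusted p = 0.0359), and Ifitm3, which blocks viral entry, fell by 1.10 in conventional dendritic cells (SE 0.20, edgeR adjusted p = 0.0178), where 0.454% and 1.49% of all genes were called. Of 40 other interferon-stimulated genes the median in mesenchymal cells was -0.54 over 33 tested, in monocytes -0.30 over 38 and in mature neutrophils -0.01 over 27.

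In monocytes against macrophages, where 27.3% of all genes were higher and 27.1% lower, 28 of 39 tested genes of that list were higher and 4 lower, with Ifitm3 higher by 1.86 and Ifi27 lower by 2.01 on the log2 scale. Of interferon receptors and signalling genes 10 of 17 were higher and 2 lower, led by Irf1 at 2.11, and of interferon gamma response GTPases and antigen processing genes 10 of 15 and 2. Of the sensing genes upstream of interferon 5 of 13 were higher and 2 lower, at a median of 0.32, with Tmem173, which encodes STING, at 1.55. In mature neutrophils against macrophages, where 33.5% of all genes were higher and 42.1% lower, 18 of 39 other interferon-stimulated genes were higher and 14 lower, with Slfn4 and Slfn1 higher by 5.55 and 4.42 and Ms4a4c lower by 4.86. The signalling list had 8 of 17 higher and 4 lower and the interferon gamma list 8 of 15 and 4, whereas the sensing list had 4 of 12 higher and 6 lower, at a median of -0.41. The median of the sensing list lay below 0, as did that of all genes given above, and those of the other 3 lists lay above 0. With 12 genes tested, the 4 higher and 6 lower of the sensing list were near the shares of all genes.

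In mature against immature neutrophils, where 33.8% of all genes were higher and 33.5% lower, 28 of 31 other interferon-stimulated genes were higher and 1 lower. In mesenchymal cells against macrophages (40.4% and 34.6%) these were 2 of 39 and 35, in endothelial against mesenchymal cells (27.7% and 32.8%) 25 of 35 and 6, and in plasmacytoid against conventional dendritic cells (25.8% and 26.9%) 3 of 34 and 29.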

How the data were processed

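The deposited files were unfiltered matrices of raw counts, in which the authors gave whole UMIs per gene and barcode for each library. Their headers name Cell Ranger 4, the labels list Cell Ranger 2.1.1 and build mm10, and no normalization had been applied. The members and lists were chosen with earlier results of these data known.

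Barcodes were tested against free RNA (barcodes of up to 100 UMIs, 10000 simulations, false discovery rate 0.01). Cells needed 500 UMIs, 200 genes and at most 10% mitochondrial UMIs, and those with the highest Scrublet doublet scores were removed (0.8% per 1000 cells). Leiden clustering (scanpy 1.11.5, leidenalg 0.10.2, 2000 variable genes, 30 components, 15 neighbours, resolution 1.0) left out the members, Nlrp3 and sex-linked genes. Clusters were named by fixed markers (3 or more in 10% of cells at 1.5-fold). Clusters with over 75% of cells from 1 library were set aside. That limit, the joint name of T and NK cells and the name intermediate neutrophils were set after the clusters were seen.

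UMIs were summed per library and type (20 cells or more in every library) and tested with the edgeR 4.0.16 quasi-likelihood test in R 4.3.3 (TMM, filterByExpr, Benjamini-Hochberg over all genes tested, threshold 0.05). DESeq2 1.42.0 was an alternative, as were a replicate block, RLE size factors, low counts left unfiltered, each library left out, a minimum of 1000 UMIs per cell, doublets kept, set-aside clusters kept and clustering with the members. With 3 libraries per group, of pooled animals, p-values measure the spread between libraries. Intervals of counts were not computed for sums, whose UMI numbers are given where they are low. Named members were the 10 with the smallest adjusted p among those called in a comparison, the 8 fixed members in 3 types, and for levels the 2 with the most UMIs of each role and those with the lowest totals; exceptions are marked. On simulated macrophage counts (11796 genes) the test recovered 100% of 4-fold and 57% of 2-fold changes, with 4 false calls. On monocyte counts (9934 genes) it recovered 99% and 43%, with 11 false calls. The simulation gave every gene the same dispersion of 0.05 and changed only genes with a mean above 20 UMIs. It therefore does not give the share recovered for genes with fewer UMIs or at the spread between these libraries. Promoters were RefSeq sequences of GRCm38.p6.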

Additional observations from a re-analysis of the deposited data

How the results depend on the processing

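Counts over all types are of pairs of a member and a type, so that 1 member can count in several types. Between genotypes edgeR made 8 such calls, each lower in Nlrp3-/- libraries. DESeq2 made 31 over all types, all lower, where it called 0.47% to 3.95% of all genes by type. They were 1 in B cells, 1 in T and NK cells, 4 in conventional dendritic cells, 2 in endothelial cells, 5 in immature neutrophils and 3 in macrophages. A further 1 was in mature neutrophils, 5 in mesenchymal cells, 5 in monocytes, 1 in neutrophil precursors, 1 in osteoclasts and 2 in pericytes and smooth muscle cells. Without a filter on low counts 104 were called, 91 lower and 13 higher, against 0.0952% to 6.8% of all genes by type: 4 in B cells, 3 in T and NK cells, 13 in conventional dendritic cells (6 higher and 7 lower), 14 in endothelial cells, 13 in immature and 4 in intermediate neutrophils, 3 in macrophages, 2 in mature neutrophils, 15 in monocytes, 5 in precursors, 12 in osteoclasts, 12 in pericytes and smooth muscle cells and 4 in plasmacytoid dendritic cells, and the interaction called 1. With doublets kept 13 were called, all lower, against 0.131% to 1.31% of all genes, with 1 in T and NK cells, 1 in conventional dendritic cells and 9 in immature neutrophils. With set-aside clusters kept 4 were called, all lower, against 0.101% to 1.49% of all genes, with 0 in immature neutrophils. Clustering with the members gave 6 in all, against 0.108% to 1.64% of all genes, with 0 in immature neutrophils and 1 in plasmacytoid dendritic cells. It left 11318 cells unnamed, among them 6301 nearest to mature neutrophils and 3640 near both macrophages and conventional dendritic cells. Mature neutrophils then held 2506 cells instead of 10063, with 3 of 19 tested members called (2 higher and 1 lower in Nlrp3-/- libraries). Conventional dendritic cells had no value. The cause of these changes was not tested.

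The replicate numbers did not pair the libraries: same-number correlations of deviations ranged from -0.641 to 0.143, and in 0 of 14 types was every pair over 0.1. The fit with the replicate block made 12 calls in all, against 0.0338% to 2.27% of all genes by type. It called 1 member each in B cells, endothelial cells, immature neutrophils, intermediate neutrophils, precursors and plasmacytoid dendritic cells and 2 in T and NK cells. Between cell types, the fit with no replicate block called 12 members in monocytes against macrophages instead of 25 (36.6% of all genes instead of 54.3%) and 19 in endothelial against mesenchymal cells instead of 31 (47.3% instead of 60.5%). Clustering with the members called 15 higher and 14 lower in monocytes (55.3% of all genes) and 9 higher and 24 lower in mature neutrophils (70.4%) against macrophages. The share of thinned cells with several members did not overlap between genotypes in 2 types without Ifi27l2a, an alternative chosen after the data were seen, instead of 7.

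Leaving out 1 library at a time, the calls of members between genotypes ranged from 1 to 97 in all, with 97 without wild-type replicate 3 and at most 6 without any other library. Those 97 were all lower in Nlrp3-/- libraries. In conventional dendritic cells 1 was higher and 1 lower without Nlrp3-/- replicate 1, and likewise without Nlrp3-/- replicate 3. The share of all genes called by type was 0.105% to 23.4% without wild-type replicate 3, with 16.1% in conventional dendritic cells, 23.4% in endothelial cells and 18.7% in macrophages, and at most 1.38% without any other. They ranged from 0 to 2 in B cells, T and NK cells and precursors, 0 to 3 in mesenchymal cells, 0 to 5 in plasmacytoid dendritic cells, 0 to 6 in intermediate neutrophils and in pericytes and smooth muscle cells, 1 to 8 in conventional dendritic cells, 0 to 10 in osteoclasts, 0 to 11 in macrophages and immature neutrophils, 0 to 13 in endothelial cells, 0 to 18 in monocytes and 0 to 0 in mature neutrophils and for the interaction. Between cell types they ranged from 179 to 194 over the 6 comparisons (192 with all libraries). They were 21 to 29 in monocytes against macrophages (41.9% to 51.4% of all genes), 27 to 31 in mature neutrophils against macrophages (68.4% to 71.2%), 36 to 37 in mesenchymal cells against macrophages (62.5% to 75.8%), 30 to 31 in mature against immature neutrophils (57.7% to 63.8%), 29 to 32 in endothelial against mesenchymal cells (47.3% to 60.3%) and 34 to 35 in plasmacytoid against conventional dendritic cells (42.6% to 47.9%).

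Fits of the 8 fixed members that changed sign, none past the threshold, were as follows on the log2 scale. Clustering with the members gave 0.17 for Ifit3 in macrophages and -1.41 for Rsad2 in the 2506 cells then named mature neutrophils. Set-aside clusters kept gave 1.04 for Rsad2 in mesenchymal cells. In mature neutrophils doublets kept gave 0.028 and a minimum of 1000 UMIs 0.058 for Isg15, and no filter -0.053 for Zbp1. The replicate block gave 0.13 for Ifit3 in macrophages and -0.014 for Ifit3 and -0.030 for Rsad2 in mature neutrophils. Leaving out 1 library at a time, macrophages ranged from -0.12 to 0.39 for Ifit1, -0.33 to 0.68 for Ifit3 and -0.44 to 0.53 for Rsad2, and mesenchymal cells from -1.30 to 0.25 for Oasl1 and -1.66 to 0.15 for Rsad2. Mature neutrophils ranged from -0.32 to 2.30 for Cxcl10, -0.53 to 0.99 for Ifit1, -0.67 to 0.52 for Ifit3, -0.999 to 0.32 for Isg15, -0.92 to 1.06 for Rsad2 and -0.13 to 0.33 for Zbp1, and the lowest of each of these was that without Nlrp3-/- replicate 1. Without the clusters held by few libraries, an alternative chosen after the data were seen, the summed level was 3197 ± 921 in wild-type and 1968 ± 574 in Nlrp3-/- mature neutrophils and 301 ± 106 and 245 ± 23.8 in immature neutrophils (SD, n = 3).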
